A study of Mus musculus with 50 samples.

Results

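Variants in 7 genes that guard the genome were followed through 44 exomes of IL6Myc mouse tumours, taken from the mesenteric lymph node, each from its own animal. The genes are the p53 gene Trp53, the p53-binding protein gene Trp53bp1, the mismatch repair gene Msh6, the breast cancer genes Brca1 and Brca2, and the Fanconi anaemia genes Fanca and Fancd2. They were chosen by the protein-altering calls that the deposited variant table lists in them, so the presence of such calls is a property of the choice and not a finding. Every row that names one of them was kept, whatever its effect, which gave 49 of the 25624 variants analysed. None of the rows with several alternate alleles named one of these genes. The tumours carry the IL6Myc transgenes, named for interleukin 6 and Myc, and are labelled as malignant plasma cells. No source used here names the promoters that drive the transgenes, and the cell type could not be checked against markers, since only DNA was measured. The labels name 45 such tumours and, as controls, 5 WT kidneys of the Balb/c strain. The kidneys and tumour 4 were not analysed here, and a call cannot be assigned to the germ line or to the tumour.

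As background, p53 is a transcription factor that stops the cell cycle or triggers death after DNA damage. 53BP1, the product of Trp53bp1, gathers at double-strand breaks and steers them to end joining, which B cells also use to switch antibody class, while BRCA1 opposes it and BRCA2 serves repair by homologous recombination. MSH6 helps to detect base mismatches and short loops after replication, and cells without it gather substitutions and short insertions or deletions. FANCA is part of the core complex that attaches ubiquitin to FANCD2 when a crosslink blocks a replication fork.

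Each cell of the table is the percentage of reads at a site that carry the alternate allele, termed the read share here. Read depth is unknown, so no interval can be set around a read share, and a missing call can mean the reference base or too few reads. A low read share can reflect few mutated cells, few mutated copies per cell or a sequencing error, and these cannot be told apart in bulk DNA. Variants with 1 carrier among the tumours are termed private, those with more carriers shared. Calls per tumour ran from 1898 to 5929.

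The 49 variants comprised 41 single nucleotide variants (SNVs) and 8 insertions or deletions (indels), 23 of them private and 26 shared, in 11 tumours. By effect there were 9 missense changes, 1 in-frame deletion, 6 synonymous changes, 30 intronic variants, 1 splice region variant and 2 variants annotated to the 3' UTR of Zfp276, which lie in an intron of Fanca. No truncating variant was listed. The 10 protein-altering variants, 8 of them private, fell in 7 of 44 tumours (15.9%, exact Clopper-Pearson 95% interval 6.64 to 30.1%). The interval covers counting error only, in genes chosen by their calls, and is no rate for other genes. Fanca p.Leu43Val is shared by tumours 1, 2 and 3, so the 7 tumours are not independent. Over all 21896 protein-coding genes of the RefSeq table, 7.78% had a protein-altering variant, 5.46% had a private one and 1.69% had a private one at a read share of at least 20%. These shares are the background for the counts of genes below. In all 16 variants with a written protein change or residue, the codon computed from the coding position was the one written.

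The indel alleles are short, and those the results turn on are shown as deposited for the plus strand of mm10, 5′ to 3′, with the reference base before the change in lower case and the bases removed or added in capitals. The first is the only one that alters a protein. Next come a pair of Fanca deletions with the same carriers, then a repeat inserted beside a Fanca splice site at a read share of 42.86%. The last pair remove different numbers of bases at 1 position of a Brca1 intron.
Fancd2 deletion in tumour 30, chr6:113595941-113595944: tGAC
Fanca intronic deletion in tumours 1, 2 and 3, chr8:123317974-123317979: tACTCA
Fanca intronic deletion in tumours 1, 2 and 3, chr8:123318346-123318348: aGC
Fanca insertion in tumour 1, after the base at chr8:123300125: aGAGAGAGAGAGAGAGAGAGAGG
Brca1 intronic deletion in tumour 12, chr11:101492345-101492346: gT
Brca1 intronic deletion in tumour 15, chr11:101492345-101492348: gTTT

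**Figure D1:**
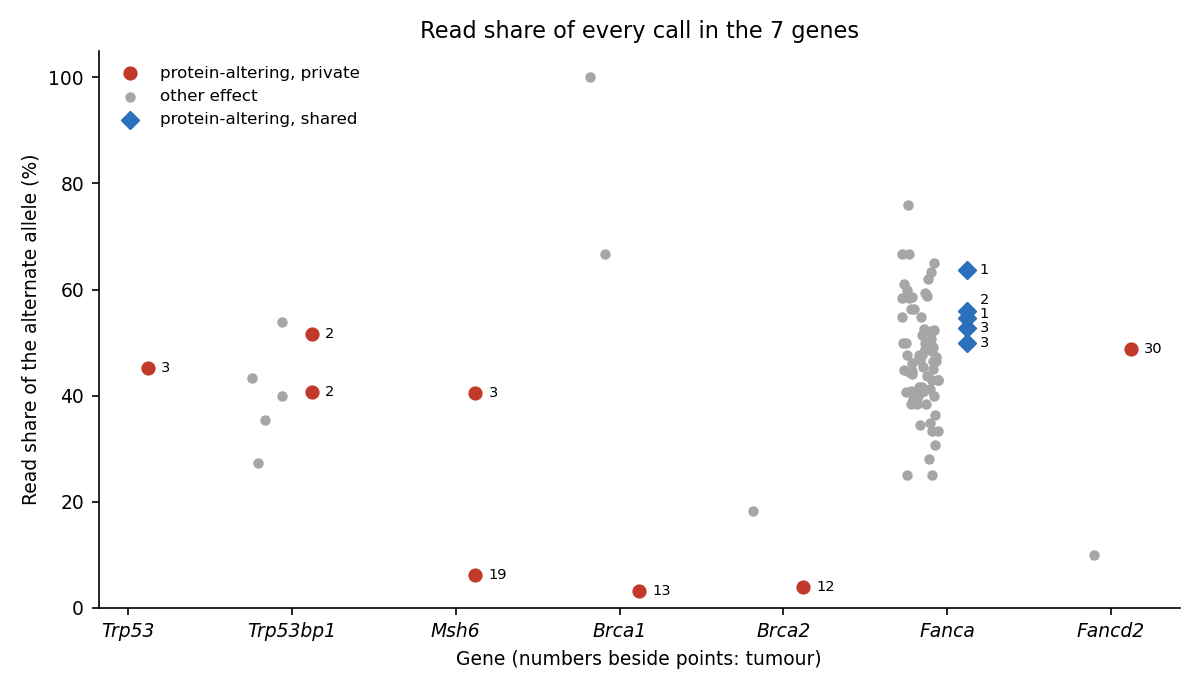
Read share (%, vertical axis) of every call in the 7 genes (horizontal axis), 1 point per variant and carrier. Red circles are private and blue diamonds shared protein-altering variants, numbered by tumour, and grey points have other effects. The changes in Brca1 and Brca2 and 1 of the 2 in Msh6 lie at or below 6.25%, and the other protein-altering calls lie between 40.58% and 63.64%.

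Trp53, on chromosome 11 (69580348 to 69591873 on GRCm38.p6, the assembly that mm10 names), held 1 variant in all 44 tumours. Tumour 3 carried the missense change p.Tyr123Ser, c.368A>C, at position 69588365, with a read share of 45.28%. It replaces an aromatic by a small polar residue in the DNA-binding domain, the part of p53 that contacts its target sites and holds most p53 mutations of human cancers. The call stood above 301 of the 369 private SNVs of tumour 3 outside the 7 genes, whose median read share was 21.95%.

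The chromosome around Trp53 had uneven read shares in the same tumour. Tumour 3 had 620 shared SNVs on chromosome 11, with a median read share of 29.9% (quartiles 25 and 34.8%), against a median of 48.1% over the calls of the same SNVs in the other tumours. The SD of the other tumours' own medians was 1.89 percentage points, so the gap of -18.1 points is larger than the spread between them. The Trp53 call was higher than 586 of the 620, or 94.5%. Few SNVs lay close to the gene: within 5 Mb tumour 3 had 3 others, among which the shared one was at 35%. The nearest, a private p.Ala2643Val of the dynein gene Dnah2 132.5 kb away, had a read share of 66.07%, and the other private one had 10.53%. Upstream of this window 187 shared SNVs had a median of 30.2%, and downstream 432 had 29.5%, so the shift lay on both sides of Trp53. The upstream ones lay mostly at -31.4 Mb or farther from the start of Trp53. Nearer, outside the window, were a shared SNV at 24% (-8.72 Mb) and private ones at 12.5% (-9.09 Mb) and 73.03% (Fat2 p.Thr1847Met, -14.3 Mb). Ppm1d, a phosphatase gene that restrains p53 and lies on the same chromosome, carried p.Gln590His at 20.45% in tumour 3, against 41.46% in tumour 1 and 46.34% in tumour 2. Whether the chromosome 11 copies differ in number in tumour 3 was not tested.

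**Figure D2:**
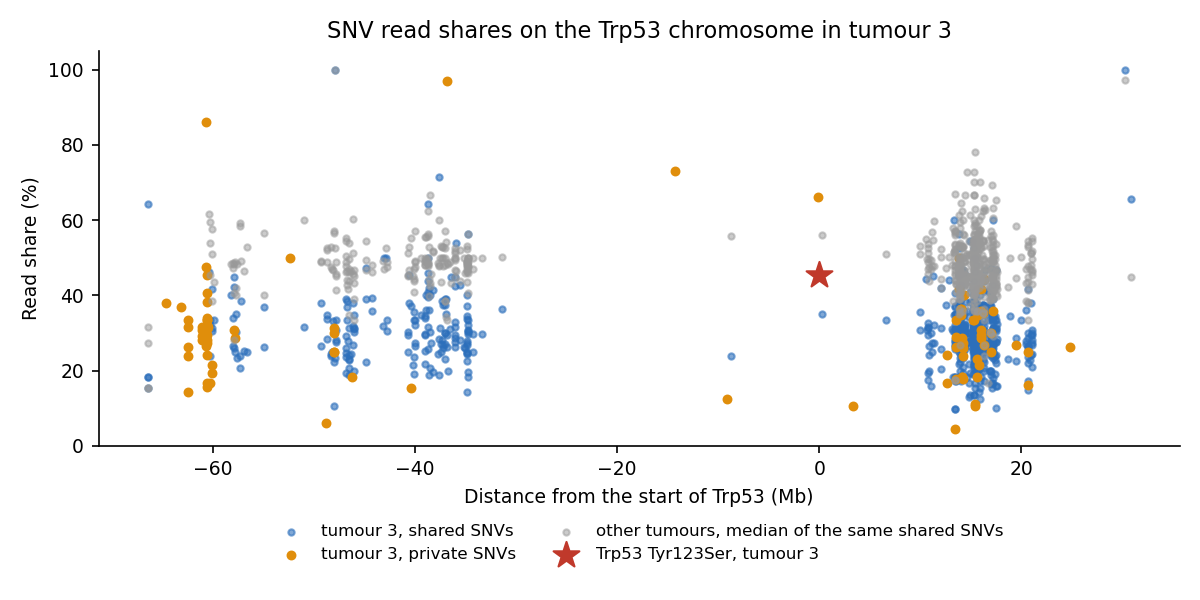
Read share (%, vertical axis) of SNVs on chromosome 11 against the distance from the start of Trp53 (Mb, horizontal axis). Blue points are shared and orange points private SNVs of tumour 3, grey points are the medians of the same shared SNVs over the other tumours, and the star is Trp53 p.Tyr123Ser at 45.28%. The blue points centre near 29.9% on both sides of the gene, below the grey points.

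Trp53bp1, on chromosome 2 (121194835 to 121296354), held 7 variants, all private to tumour 2. They were the missense changes p.Val835Ala at 51.67% and p.Gly157Ser at 40.74%, the synonymous change at Ala1694 at 35.48%, and 4 intronic SNVs at 27.27%, 40%, 43.33% and 53.85%. Both missense changes lie upstream of the Tudor and BRCT domains with which 53BP1 reads chromatin and binds partners. The 7 read shares ran from 27.27% to 53.85% with a median of 40.7%. These variants stood inside a dense run: within 5 Mb of p.Val835Ala, tumour 2 carried 547 variants, and 539 of them were private to it. Of these, 48 altered a protein, and the 489 SNVs among them had a median read share of 47.6% (quartiles 41.7 and 52.9%). Of the 1060 private variants of tumour 2 on chromosome 2, 554 lay between 110 and 130 Mb and 479 between 10 and 30 Mb.

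Msh6, on chromosome 17 (87975050 to 87990892), carried 2 private missense changes in different tumours, 4.55% of 44 (exact 95% interval 0.555 to 15.5%). The interval covers counting error only, in a gene chosen by its calls. Tumour 3 carried p.Phe1287Leu at 40.58%, at position 87990494, in the C-terminal ATPase domain of the protein. Tumour 19 carried p.Lys503Thr at 6.25%, at position 87985326, upstream of the ATPase domain. The first stood above 285 of the 369 private SNVs of tumour 3, the second above 28 of the 343 of tumour 19, whose median was 18.5%. Of the 41 other variants listed within 5 Mb of p.Phe1287Leu, tumour 3 carried 0. Tumour 3 is thus the carrier of the changes in both Trp53 and Msh6, and also of both Fanca changes described below.

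Brca1 and Brca2 carried 1 private missense change each, both at low read shares and in different tumours. Brca1 (chromosome 11, 101488761 to 101551955) carried p.Trp318Cys, c.954G>T, in tumour 13 at 3.16%, between the N-terminal RING domain that holds its ubiquitin ligase activity and the C-terminal BRCT repeats. Only 3 of the 311 private SNVs of tumour 13 were lower. Brca2 (chromosome 5, 150522297 to 150570147) carried p.Asp1333Tyr, c.3997G>T, in tumour 12 at 3.95%, in the central stretch that holds the BRC repeats. Among the 270 private SNVs of tumour 12, 23 were lower.

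Both changes are C>A substitutions when referred to the pyrimidine base. Their carriers belong to the 11 tumours with titles 1501 to 1568, in which C>A made up 26.8 to 59.0% of private SNVs with read shares under 10% (median 39.5%). It made up 49.4% in tumour 13 and 38.7% in tumour 12. In the 29 tumours with titles 1569 to 1628 the range was 0 to 23.3% (median 10.8%), and in the 4 with titles 1199 to 1293 it was 15.4 to 28.6%. The part of this excess in the 2 calls was not tested. The non-coding variants of both genes were 2 Brca1 intronic deletions, at 100% in tumour 12 and 66.67% in tumour 15, and a Brca2 intronic SNV at 18.18% in tumour 17.

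Fanca, on chromosome 8 (123266294 to 123318651), held 32 of the 49 variants and all 26 shared ones. Tumours 1, 2 and 3 together carried 21 of the 32. Tumours 1 and 2 shared 3 more, tumours 1 and 3 shared 2, tumour 1 alone had 3, tumour 3 alone had 2 and tumour 5 had 1, an intronic insertion at 38.46%. The missense change p.Leu43Val, at position 123318124 in the N-terminal part, had read shares of 54.55% in tumour 1, 55.91% in tumour 2 and 52.81% in tumour 3. The second, p.Ala901Val at 123284067, had 63.64% in tumour 1 and 50% in tumour 3 and was not listed in tumour 2. All 3 tumours thus sat near an even split of reads, with medians over Fanca SNVs of 46.5% in tumour 1 (n = 25), 50.8% in tumour 2 (n = 21) and 48.5% in tumour 3 (n = 23).

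Many neighbours of Fanca had the same carriers. Within 5 Mb of p.Leu43Val, 84 of the 210 variants outside Fanca had exactly tumours 1, 2 and 3 as carriers. They lay between 123124172 and 125672383, 13 of them altered a protein, and their SNVs had median read shares of 49.3%, 48.8% and 55.4% in tumours 1, 2 and 3. For p.Ala901Val, 9 of the 210 had exactly tumours 1 and 3 as carriers. These 3 tumours have neighbouring titles, 1199 to 1201. The 5 synonymous Fanca changes, at Thr825, Asn689, Glu656, Val544 and Gly525, were all among the 21 variants carried by the 3 tumours.

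Fancd2, on chromosome 6 (113531640 to 113597020), carried the only protein-altering indel. Tumour 30 had the in-frame deletion p.Asp1447del, whose removed codon is shown above, at a read share of 48.75%. The deletion lies close to the C-terminal end of the protein, far from the lysine that receives ubiquitin. Its read share exceeded that of 122 of the 136 private SNVs of tumour 30, whose median was 18.2%. Private indels of tumour 30 had higher medians than its SNVs, 47.3% for those of 1 base (n = 40) and 26.8% for longer ones (n = 28). The deletion, of 3 bases, was not ranked among the indels, so its place above most SNVs does not set it apart from them. None of the 28 other variants within 5 Mb was called in that tumour. A Fancd2 intronic SNV was private to tumour 35, at 10%.

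**Figure D3:**
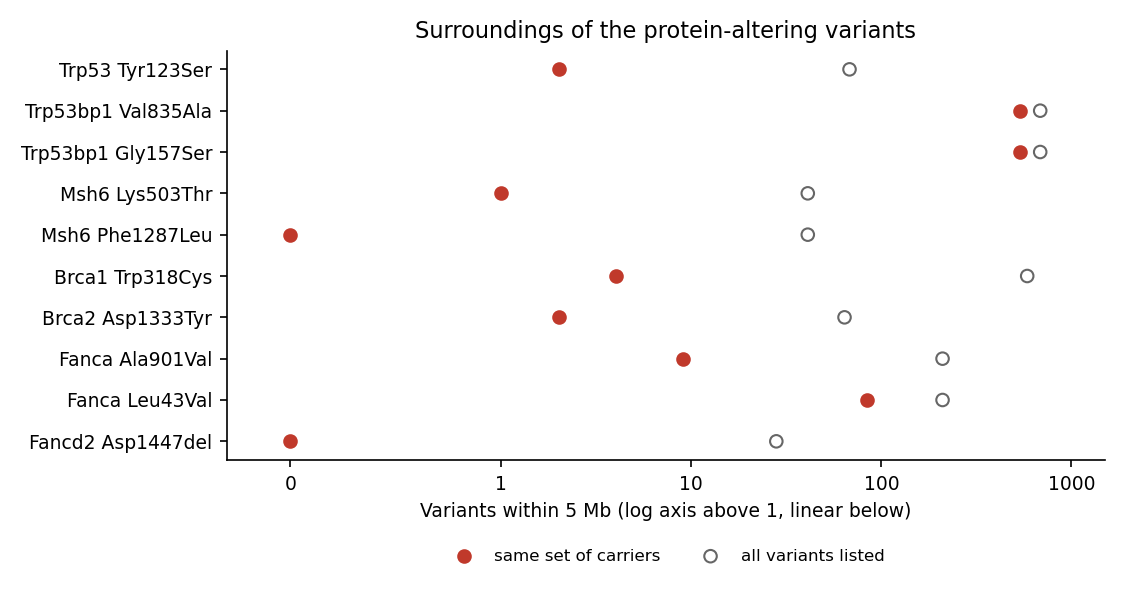
Number of variants outside the 7 genes within 5 Mb of each protein-altering variant (horizontal axis, logarithmic above 1 and linear below). Red points count variants with exactly the same carriers and open circles all variants listed there. The Trp53bp1 changes have 539 such neighbours and Fanca p.Leu43Val has 84, whereas Msh6 p.Phe1287Leu and Fancd2 p.Asp1447del have 0.

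The other genes of these pathways were counted on 5 lists of 88 genes in all. A protein-altering variant was listed in 10 of the 88 (11.4%), and a private one in 8 (9.09%), against 7.78% and 5.46% of all protein-coding genes. At a read share of at least 20% the private count was 3 (3.41%, against 1.69%). No test of this difference was made, the coding length of the genes was not taken into account, and a few genes make up each count. On the p53 pathway list, 1 of 20 genes was altered, Ppm1d, by the shared change given above.

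On the Fanconi list 3 of 20 genes carried private changes. Fancm, the translocase gene of the pathway, had a frameshift, p.Thr628Metfs*20, at 25.32% and p.Leu1894Pro at 37%, both in tumour 21. Ube2t, which encodes the enzyme that passes ubiquitin to FANCD2, had p.Ala149Val at 42.37% in tumour 8, and Brip1, the gene of a helicase that binds BRCA1, had p.Ser467Phe at 15.73% in tumour 13, the carrier of the Brca1 change.

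On the list of BRCA and recombination genes 3 of 20 were altered. Rad54b, a recombination translocase gene, had the shared changes p.Val824Ile in 11 tumours (median read share 48.7%) and p.Thr433Arg in 10 (median 46.5%). Uimc1, whose product brings BRCA1 to ubiquitin at breaks, had p.Glu709Asp in tumour 2 at 33.33%, and the polymerase theta gene Polq had p.Pro1677His in tumour 9 at 3.45%, a C>A change like those of Brca1 and Brca2. On the end-joining list the deubiquitinase gene Usp28 carried p.Ala453Val at 4.55% in tumour 44.

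The private load of the 6 carriers of a private protein-altering variant in the 7 genes was counted outside these genes. Tumour 2 had 1423 private SNVs and 273 private indels, the highest of 44 in both, and without chromosome 2, which held 1053 of these variants, it had 497 and 146. Tumour 3 had 369 SNVs and 84 indels, and tumour 19 had 343 and 111. Tumour 13 had 311 SNVs and 49 indels, tumour 12 had 270 and 41, and tumour 30 had 136 and 68. Tumour 1, whose protein-altering variants in these genes were the shared Fanca changes and which counts among the other tumours, had 366 and 91. The other 38 tumours had 62 to 747 SNVs (median 144.5) and 24 to 164 indels (median 52). All carriers but tumour 30 lay above the other tumours' median for SNVs, with overlap between the groups.

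The carriers' median of 327 private SNVs exceeded the other tumours' median of 144.5 (exact two-sided rank-sum permutation test, p = 0.00629, adjusted p = 0.0189 over 3 measures). For private indels the medians were 76 and 52 (exact permutation p = 0.096, adjusted p = 0.096), and for the share of indels among private variants 17.3% and 26.75% (exact permutation p = 0.0664, adjusted p = 0.096). Both counts are tied to the definition of a carrier, since a tumour with more private variants has more chances of one in any gene. The indel share is computed from these counts. Private SNV counts also differ with the titles. Private SNVs numbered 366 to 1423 in the 4 tumours with titles 1199 to 1293, 195 to 482 in the 11 with titles 1501 to 1568 and 62 to 343 in the 29 with titles 1569 to 1628, and each block held 2 carriers. Within titles 1501 to 1568 the medians differed by 43.5 SNVs (exact permutation, adjusted p = 0.582), and within 1569 to 1628 by 113.5 (exact permutation, adjusted p = 0.222). With 2 carriers per block, these tests have little power and cannot decide whether the SNV difference holds within a block. In titles 1501 to 1568 the indel shares of both carriers (13.18 and 13.61%) lay below all others (lowest 14.1%). Even so, the adjusted p was 0.109 (exact permutation). Without each tumour's fullest chromosome the medians differed by 155.5 SNVs (exact permutation, adjusted p = 0.00867), against 182.5 with it. Without tumour 2 (exact permutation, adjusted p = 0.0774) or without tumour 3 (exact permutation, adjusted p = 0.0546) the test no longer passed, while the difference stayed at 166.5 SNVs in both cases. What the titles stand for is not given, so their part was not separated further.

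**Figure D4:**
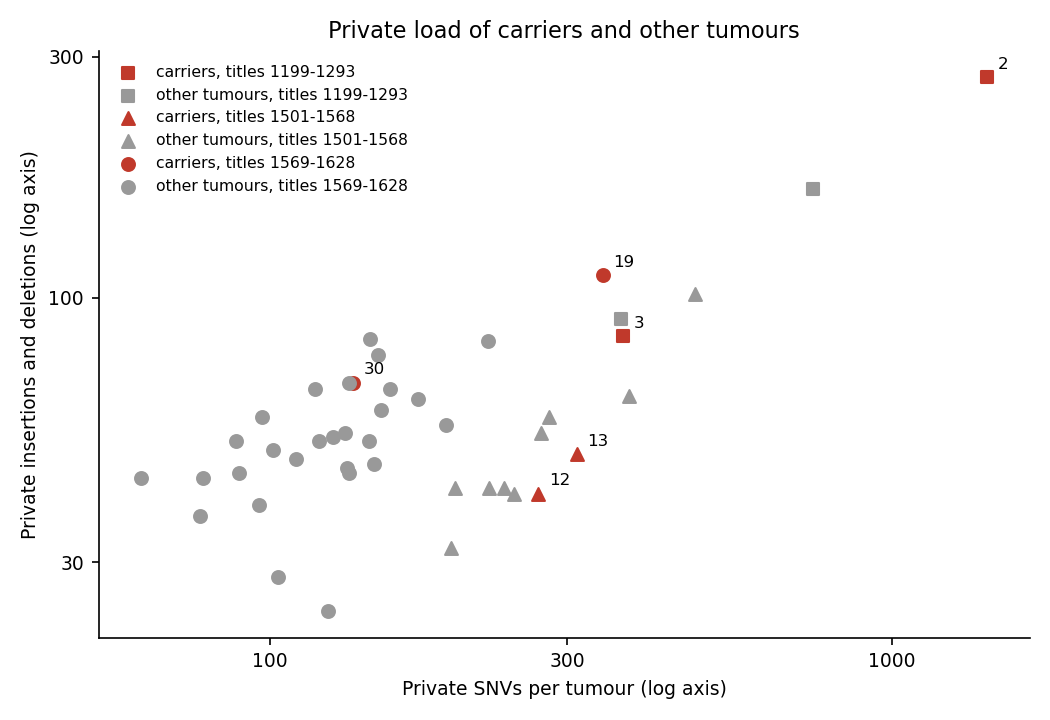
Private SNVs (horizontal, log axis) and private indels (vertical, log axis) of each of 44 tumours, counted outside the 7 genes. Red symbols are the 6 carriers of a private protein-altering variant, numbered by tumour, grey symbols the other tumours, and shapes the title blocks. Tumour 2 is the highest on both axes, and tumour 19 is the highest of its block on both.

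The size of private indels differed among the carriers. Indels of 1 base made up 40 of 68 in tumour 30, or 58.8% (exact 95% interval 46.2 to 70.6%), and 63 of 111 in tumour 19, or 56.8% (47.0 to 66.1%). These were the highest and the next highest shares of 44 tumours, whose median was 28.2%. Tumour 3, with the Msh6 change at the higher read share, had 21 of 84, or 25% (16.2 to 35.6%), the rank 30 of 44. The carriers of the Msh6 changes thus stood at opposite sides of the median. In tumour 19, 53 of the 63 were deletions and 50 (79.4%) added or removed an A or T, with a median read share of 47.1%. In tumour 30, 36 of the 40 were deletions and 32 (80.0%) involved A or T, with a median read share of 47.3%. Other tumours had such values too. Over all 44 the A or T share of 1-base indels ran from 33.3 to 100% (median 66.7%). Their median read share per tumour ran from 16.4 to 62.5% (median 46.15%). Deletions were 22 of 25 in tumour 39 and 8 of 21 in tumour 3. The 1-base share was chosen after the data were seen and was not tested. A link between the Msh6 calls and these indels was not tested.

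**Figure D5:**
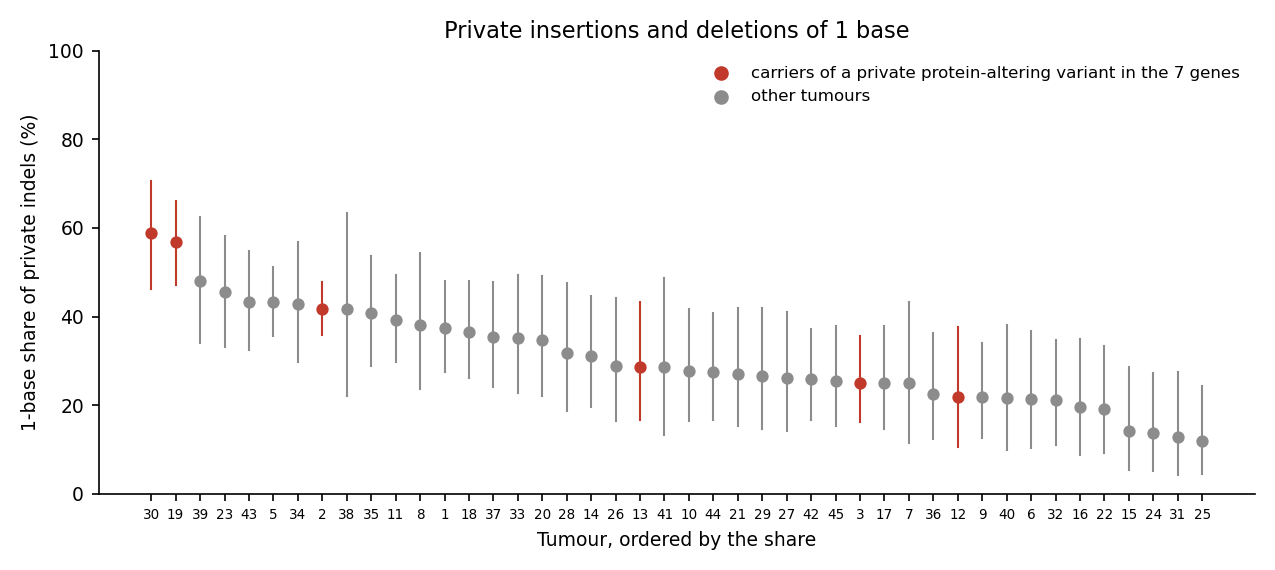
Share of private indels that are 1 base long (%, vertical axis) in each of 44 tumours, ordered by the share (horizontal axis), with exact 95% binomial intervals as lines. Red marks the 6 carriers. Tumours 30 and 19 stand at 58.8% and 56.8%, and the carriers 2, 13, 3 and 12 lie among the other tumours.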

How the data were processed

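The data were 1 deposited table of annotated variants from exome capture of genomic DNA (Agilent SureSelect mouse exon design, per the labels' protocols). GATK and the mm10 build are named in the submitters' processing notes. For the aligner, filters and annotation tool, nothing is given in the sources used here. Tumour cells of the deposited table hold a percentage, and the deposited count per row states how many tumours have a value. Rows with several alternate alleles (199 of 25823) were left out. Tumours were matched to columns by title and are numbered in accession order.

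Variants were taken as protein-altering where the effect was missense, frameshift, in-frame, a gained or lost stop, an initiator codon or an essential splice site. Gene positions and the 21896 protein-coding genes came from the RefSeq table of GRCm38.p6. All 88 list genes matched it by symbol or synonym. Read shares around a variant used shared SNVs within 10 Mb or on the whole chromosome, with at least 5 SNVs. Neighbours within 5 Mb were compared by their carriers. Loads were compared by an exact rank-sum permutation test with Benjamini-Hochberg adjustment over 3 measures, tested on simulated data. Alternatives changed the minimum read share, the windows, the carrier definition and the tumours included. Depth per site is unknown. Analyses used Python 3.11.15, pandas 2.3.3, NumPy 2.4.6 and SciPy 1.17.1. Named are the 7 genes and, of the lists, genes with a private protein-altering variant or one in at least 3 tumours, and some of these are not reported here. The members and lists were chosen with earlier results of these data known. All are samples of separate mice, per the series' design text.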

Additional observations from a re-analysis of the deposited data

How the results depend on the processing

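A minimum read share of 10% or 20% left 4 of 7 tumours with a protein-altering variant in the genes, 1 of 2 for Msh6 and 0 for Brca1 and Brca2. Private variants only gave 6 tumours and 0 for Fanca, and SNVs only gave 6 and 0 for Fancd2. A minimum of 20% left 3 of 8 list genes with a private change. The definition of a carrier favours an excess of private SNVs. The carriers' excess kept its direction in every alternative run. It no longer passed with carriers defined by a read share of at least 20% (222 SNVs), within titles 1501 to 1592 (87) or 1601 to 1628 (12), and within the blocks added after seeing the data, 1501 to 1568 (43.5), 1569 to 1592 (194) and 1569 to 1628 (113.5). Titles 1569 to 1592 and 1601 to 1628 hold 1 carrier each, too few for the test to pass whatever the values. Titles 1501 to 1568 and 1569 to 1628 hold 2 carriers each, so a result that does not pass there decides little. Without tumours 2 and 5, also added, it passed (adjusted exact permutation p = 0.0483). Leaving out each carrier gave differences of 166.5 to 198.5 SNVs, 16 to 32 indels and -10.65 to -8.203 points of indel share. Private indels passed when carriers were any private variant (16), any protein-altering variant (32) or read share of at least 20% (32), by a permutation of means (24), and without tumour 12 (32, adjusted exact permutation p = 0.0221). The indel count is tied to the definition of a carrier, as given above. Tumours 5 and 15 counted as carriers of any private variant through intronic indels alone. The 3 carriers at a read share of at least 20% included tumour 2, the highest of 44 in private indels. Within titles 1501 to 1592 the indel difference was -3, the opposite direction. The indel share passed with variants of at least 20% read share (-12.39 points) and without tumour 30, and was 0.877 points, the opposite direction, within titles 1601 to 1628. The cause of these changes between runs was not tested. The read share around Trp53 in tumour 3 differed from the other tumours by -20.38 points within 10 Mb (5 SNVs) and -17.67 within 20 Mb. Around Fanca in tumour 3 it was 7.08 points higher within 10 Mb, 6.71 within 5 Mb, 6.94 within 20 Mb and 6.82 on the whole chromosome. On the whole chromosome of Msh6 it differed by -20.35 points in tumour 3 (16 SNVs) and -26.99 in tumour 19 (8 SNVs). For tumour 3 the SD of the other tumours' medians there was 16.22 points. Within 2 Mb, 5 neighbours shared the carriers of Fanca p.Ala901Val. No paired analysis was possible because the kidneys were not analysed and the labels pair no samples. Unknown depth limits every missing call.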
